A study of Schmidtea mediterranea with 5 samples.

Results

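The transcripts described here are those that were raised to a similar degree in the X1 and X2 cell fractions of the planarian *Schmidtea mediterranea* over irradiated animals. Of 68301 transcripts measured in all 5 libraries, 43 met the limits of the choice. After transcripts that the study lists as known stem cell, known X2 or new epithelial progenitor genes were taken out, 39 remained. Planarian tissues are renewed by stem cells called neoblasts, the dividing cells of the adult animal, which irradiation destroys. Neoblasts give rise to progeny of many lineages. In the epithelial lineage the post-mitotic progeny carry early markers such as *prog-1* and later ones such as *AGAT-1*. The X1 gate of a Hoechst sort takes cells that have begun to replicate their DNA, most of them neoblasts, while the X2 gate is known to take progeny together with neoblasts that are not replicating. A transcript present in both gates can therefore belong to neoblasts, to progeny or to both, and bulk RNA does not separate these.

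For each condition 1 library of poly(A) RNA from the asexual CIW4 strain was analysed. Further X1, X2, irradiated and control libraries of the study were not used. The X2 and X1 libraries came from sorted cells, and the irradiated library from whole animals taken 7 days after 60 Gy of gamma irradiation. The *mex3-1(RNAi)* and *control(RNAi)* libraries came from whole animals 12 days after 1 feed by the sample titles (the growth protocol gives 5 feeds), with *unc22* dsRNA, which has no planarian target, as the control, and each pooled 3 RNA preparations. *mex3-1* encodes an RNA-binding protein. The X2, X1, irradiated, *mex3-1(RNAi)* and *control(RNAi)* libraries held between 60528509 and 69835694 reads. With 1 library analysed per condition no difference below has a replicate check, and no test between conditions was made. Intervals in square brackets are 95% counting intervals, which cover counting error only and compare libraries, not conditions.

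The libraries carried the markers of their labels. Over 4 stem cell markers (*piwi-1*, *PCNA*, *CyclinB2* and *mcm2*), the summed level was 1016 CPM (reads scaled to a common library total) in X2, 4582 in X1, 4.22 in irradiated animals, 699.7 in *mex3-1(RNAi)* and 379 in *control(RNAi)* animals. Over 4 early progeny markers of the *prog* family it was 14007 CPM in X2, 590 in X1, 4.02 in irradiated animals, 65.97 in *mex3-1(RNAi)* and 1382 in *control(RNAi)* animals. The 2 late progeny markers, *AGAT-1* and *AGAT-2*, summed to 481 CPM in X2, 30.7 in X1, 46.7 in irradiated animals, 28.0 in *mex3-1(RNAi)* and 489 in *control(RNAi)* animals. None of these 10 markers was at 0 in any library, so markers of each population were read in both gates, and their part in the ratios below was not tested. The targeted gene, *mex3-1*, stood at 23.4 CPM in *mex3-1(RNAi)* animals, against 144.0 in their controls.

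The members were chosen by ratios of CPM + 1 measured in these same libraries. The choice asked for at least 8-fold more in X1 and in X2 than in irradiated animals, an X2/X1 ratio from 0.67 to 1.5, a *mex3-1(RNAi)*/control ratio above 0.5 and below 2, and an irradiated/control ratio below 2. These ratios are therefore given as a description. Taking every transcript that reached 1 CPM in one or both libraries of a ratio, 1.01% reached 8-fold in X2 over irradiated, 3.01% reached it in X1 over irradiated, and 59.9% lay within the X2/X1 limits. The limits on the RNAi and irradiated ratios took out almost nothing: 1 unlisted transcript, SmedASXL_005659, failed the lower *mex3-1(RNAi)* limit alone, at 0.453, and 0 failed the upper one or the irradiated/control limit alone. In contrast, 43 unlisted transcripts failed only the X2/irradiated limit, 4 failed only the X1/irradiated limit, 74 had an X2/X1 ratio that was too low and 6 had one that was too high.

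The members stood well above the counting floor of 3 reads. Their levels ran from 12.7 to 11293 CPM in X2 (median 89.6), from 14.1 to 7695 CPM in X1 (median 106.8), from 0.258 to 771 CPM in irradiated animals (median 7.32), from 1.63 to 4338 CPM in *mex3-1(RNAi)* animals (median 24.5) and from 2.45 to 5351 CPM in *control(RNAi)* animals (median 19.0). These are levels per transcript that are not divided by length, so they are compared between libraries and not between transcripts. None of the 39 had 0 reads in any library, and 4 were under 1 CPM in irradiated animals, where the added 1 draws ratios toward 1. It lowers their folds over irradiated animals and raises their irradiated/control ratios. In these bulk samples, fewer cells that carry a transcript and less of it per cell cannot be told apart. In all 39 the irradiated library was the lowest, the 2 RNAi libraries lay in between, and X1 and X2 were the highest. The limits of the choice favour this order, and the share of all transcripts that have it was not counted. The order is thus a description.

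**Figure D1:**
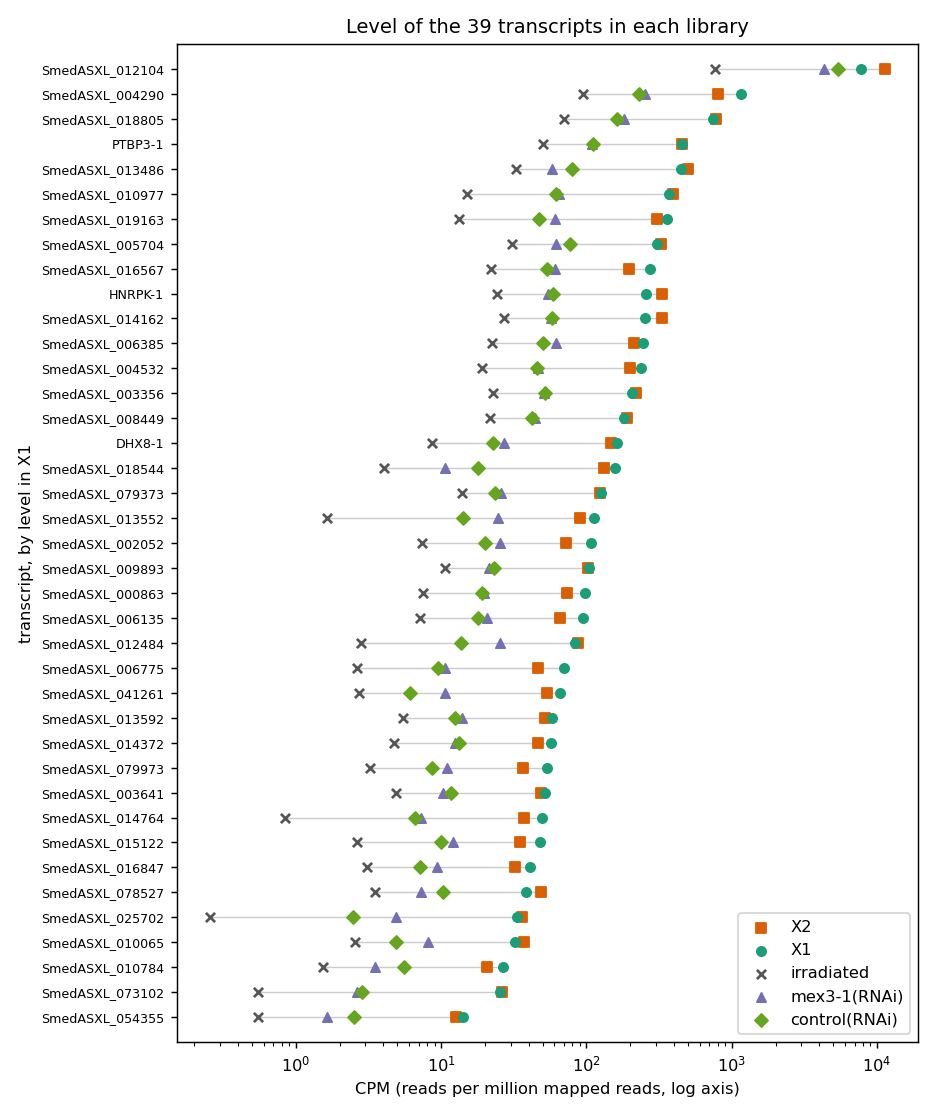
Level of each of the 39 transcripts in the X2, X1, irradiated, *mex3-1(RNAi)* and *control(RNAi)* libraries (1 library each), in CPM on a log axis, with transcripts ordered by their level in X1. In every line the irradiated point is the lowest and the X2 and X1 points are the highest, with both RNAi points between them. The limits of the choice favour this order.

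The X2 over irradiated ratio of the members ran from 8.05 to 34.4 with a median of 9.96. The X1 over irradiated ratio ran from 8.01 to 43.3 with a median of 11.7. Both ratios set sorted cells against whole animals, so sorting and irradiation cannot be told apart in them. Most members lay close to the limit: 8 of 39 reached 16-fold in X2, 11 reached it in X1, and the 8 were all among the 11. The share of all transcripts at 16-fold was not counted, and the choice used these ratios, so these counts are a description. Just inside the limits were SmedASXL_016847 with an X2/irradiated ratio of 8.05 and SmedASXL_008449 with an X1/irradiated ratio of 8.01. Just outside were SmedASXL_010755, at 7.99 in X2, and *G2ME3-ligase* (SmedASXL_016302), whose best match is a mouse ubiquitin ligase of the G2/M phase, at 7.74 in X1. The whole counting interval was at or above 8 in 30 of 39 members for X2 and in 36 for X1.

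The highest folds over irradiated animals belonged to SmedASXL_013552, an unnamed transcript. It had 89.6 CPM in X2, 112.9 CPM in X1, 1.63 CPM in irradiated animals, 24.5 CPM in *mex3-1(RNAi)* animals and 14.1 in *control(RNAi)* animals. It was 34.4-fold higher in X2 and 43.3-fold higher in X1 than in irradiated animals. Its level in irradiated animals rests on 114 reads.

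**Figure D2:**
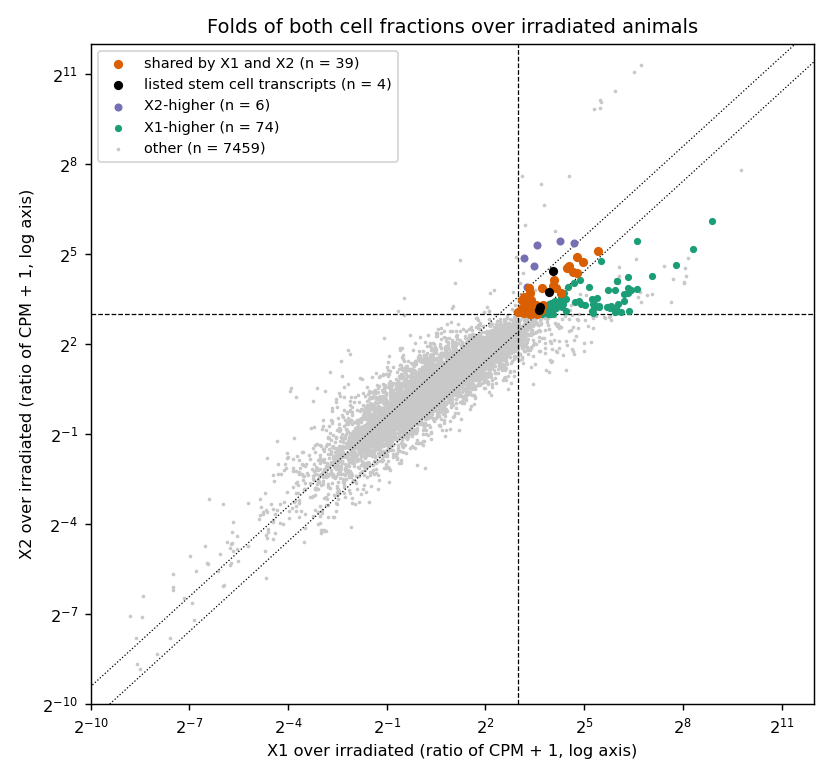
Ratio of CPM + 1 of X2 over irradiated against that of X1 over irradiated, both on log axes, for transcripts that reached 7 CPM in each fraction. Dashed lines mark 8-fold and dotted lines the X2/X1 limits of 0.67 and 1.5, and the 39 shared transcripts gather near the 8-fold corner while the 74 with a lower X2/X1 ratio extend to the right.

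The X2/X1 ratio of the members ran from 0.671 to 1.47 with a median of 0.909, and the median log2 ratio was -0.14 against 0.06 over all transcripts tested. X1 was the higher of the 2 fractions in 24 members and X2 in 15. The counting interval lay above 1 in 13 of 39, against 43.4% of all transcripts tested, below 1 in 22, against 34.8%, and held 1 in 4. Since the choice used this ratio, nothing is read from these counts. The fractions were within 25% of each other, with X2/X1 from 0.8 to the inverse of 0.8, in 23 of 39. The share of all transcripts in this narrower range was not counted, and this count too is only a description. At the edges, SmedASXL_006775 was just inside the lower limit at 0.671 and SmedASXL_012461 just outside at 0.669, and SmedASXL_012104 was just inside the upper limit at 1.47 and SmedASXL_016449 just outside at 1.56.

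The 4 stem cell markers all lay below the X2/X1 limits and the 4 early progeny markers all lay above them. For example, *piwi-1*, a PIWI protein gene used to mark neoblasts, had 934 CPM in X2 and 3697 CPM in X1, and *prog-1* had 2156 CPM in X2 and 91.2 CPM in X1. The members therefore sat between these sets of markers, as the choice required. The stem cell markers do not stand for all stem cell genes. Of the 59 known stem cell transcripts, 35 lay below the X2/X1 limits, 21 within them and 3 above. Of the 32 new epithelial progenitor transcripts, 0 lay below, 2 within and 30 above.

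A gene name was given for 3 of the 39 members, and all 3 encode RNA-binding proteins by their best mouse match. *DHX8-1* (SmedASXL_004594) matches an RNA helicase that in yeast and mammals works in the spliceosome, the machine that removes introns. It had 146.5 CPM in X2, 161.3 CPM in X1, 8.71 CPM in irradiated animals, 27.0 CPM in *mex3-1(RNAi)* animals and 22.6 in *control(RNAi)* animals. The X2/X1 ratio was 0.909 [0.884 to 0.935], and the ratio over irradiated animals was 15.2 in X2 and 16.7 in X1, the highest of the 3 named members.

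*HNRPK-1* (SmedASXL_014161) matches heterogeneous nuclear ribonucleoprotein K, which in mammals binds RNA through KH domains. It had 330.3 CPM in X2, 256.8 CPM in X1, 24.3 CPM in irradiated animals, 54.7 CPM in *mex3-1(RNAi)* animals and 59.2 in *control(RNAi)* animals. X2 was higher than X1, with a ratio of 1.29 [1.26 to 1.31]. The transcript with the next identifier, SmedASXL_014162, is also a member and had nearly equal values: 330.9 CPM in X2, 252.7 in X1, 27.1 in irradiated animals, 56.6 in *mex3-1(RNAi)* animals and 57.9 in *control(RNAi)* animals. Whether these 2 transcripts share sequence or reads was not tested, so they may not be 2 independent members.

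*PTBP3-1* (SmedASXL_010766) matches polypyrimidine tract-binding protein 3, of a mammalian family that regulates splicing. It had 455.7 CPM in X2, 450.9 CPM in X1, 50.0 CPM in irradiated animals, 109.4 CPM in *mex3-1(RNAi)* animals and 111.4 in *control(RNAi)* animals. It was the most even of the named members. Its X2/X1 ratio was 1.01 [0.994 to 1.03] and its *mex3-1(RNAi)*/control ratio 0.982 [0.951 to 1.01], and both intervals hold 1.

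These 3 genes come from a list of 5 RNA-binding genes among the 98 distinct transcripts used here from the study's sheet of top X2-enriched genes, a set chosen with X1, X2 and irradiated libraries. The count is thus no independent evidence about RNA-binding genes. The other members of that list of 5 were *mex3-1*, with an X2/X1 ratio of 2.32, and *TDP-43*, another RNA-binding protein gene, which was 4.45-fold higher in X2 and 2.99-fold higher in X1 than in irradiated animals. Of all 98 transcripts, 5 are members, and the 2 without a gene name are SmedASXL_010977 and SmedASXL_013486. SmedASXL_010977 had 393.6 CPM in X2, 371.5 in X1, 15.1 in irradiated animals, 64.7 in *mex3-1(RNAi)* animals and 61.3 in *control(RNAi)* animals. SmedASXL_013486 had 500.3 CPM in X2, 447.7 in X1, 32.9 in irradiated animals, 57.8 in *mex3-1(RNAi)* animals and 79.9 in *control(RNAi)* animals, and was thus lower in *mex3-1(RNAi)* animals with a ratio of 0.726 [0.697 to 0.757].

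Functional groups were set for 34 of these 98 transcripts, and the 2 unnamed members are among the 64 in no group. Outside the RNA-binding genes the groups held no member: among the 15 transcription regulators, 6 secretory pathway genes, 5 signalling genes and 3 chromatin genes, 0 met all limits. Of the 15 transcription regulators, 6 had an X2/X1 ratio within the limits and 9 lay above them. All 5 signalling genes lay above them. The study kept X2-enriched transcripts only where its X2/X1 ratio exceeded 1, so these positions follow in large part from that selection. Of all 98 transcripts, 66 lay above the X2/X1 limits, 30 within them and 2 below. The 32 new epithelial progenitor transcripts and the 5 known X2 transcripts also held 0 that met all limits. So did the 66 transcripts that are high in wild-type animals but low in both fractions. Only 43 of all 68301 transcripts met them, so a count of 0 in groups of these sizes is not read as a result.

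Of 59 known stem cell transcripts, 4 met every numeric limit and were taken out by name only. *piwi-3*, a PIWI protein gene, had 1885 CPM in X2, 2127 CPM in X1, 139.2 CPM in irradiated animals, 373.8 CPM in *mex3-1(RNAi)* animals and 402.6 in *control(RNAi)* animals. *Rb*, a retinoblastoma homolog that restrains entry into S phase in other animals, had 180.7 CPM in X2, 252.3 in X1, 19.6 in irradiated animals, 55.3 in *mex3-1(RNAi)* animals and 49.9 in *control(RNAi)* animals. *CyclinD2*, a cyclin that in mammals acts in G1, had 38.7 CPM in X2, 29.9 in X1, 0.845 in irradiated animals, 6.06 in *mex3-1(RNAi)* animals and 7.07 in *control(RNAi)* animals. The fourth, *fhl-1*, had 113.6 CPM in X2, 151.8 in X1, 11.1 in irradiated animals, 31.3 in *mex3-1(RNAi)* animals and 29.6 in *control(RNAi)* animals. In these 4 the X2/X1 ratio ran from 0.717 to 1.28 and the *mex3-1(RNAi)*/control ratio from 0.875 to 1.11.

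*Rb* and *CyclinD2* were the only 2 of 11 listed cell cycle and replication genes within the X2/X1 limits, and the other 9 lay below them. Among 9 listed PIWI, Vasa and Tudor genes, 2 lay within the limits and 7 below, and of those 2 *piwi-3* also reached both folds. *piwi-2* missed only the X2/X1 limit, at 0.564. Of 13 listed chromatin genes, 8 lay within the X2/X1 limits, 1 of the 13 reached both folds over irradiated animals, and 0 met all limits.

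Irradiated animals had less of every member than *control(RNAi)* animals, a direction that 66.8% of all transcripts tested shared. The irradiated/control ratio ran from 0.144 to 0.609, with a median of 0.421, and the counting interval was below 1 in all 39. The share of all transcripts with such an interval was not counted, so nothing is read from it. The level was at least 2-fold lower in 34 of 39, against 3.29% of all transcripts tested, but in 18 of 39 with 5 CPM in place of 1 CPM added to each value. The choice bounded this ratio only from above, but it also asked for a low irradiated level in the ratios over both fractions, so the count is a description. The irradiated and *control(RNAi)* animals also differed in feeding and RNAi treatment, which cannot be told apart from irradiation in this ratio. The paper states that its X1, X2 and irradiated samples were multiplexed, and does not say this of the RNAi samples. A difference between sequencing runs thus cannot be told apart either. The same holds for the ratios of X1 and X2 over control and of *mex3-1(RNAi)* over irradiated.

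Of the 39 ratios, 25 lay between 0.35 and 0.5, 5 above 0.5 and 9 below 0.35. The share of all transcripts in these bands was not counted, and the limits over irradiated animals shape this spread, so nothing is read from it. The lowest ratios were those of SmedASXL_012104, at 0.144 [0.143 to 0.146], and SmedASXL_013552, at 0.174 [0.153 to 0.198]. The highest were those of SmedASXL_010065, at 0.609 [0.530 to 0.702], and SmedASXL_079373, at 0.609 [0.564 to 0.657]. SmedASXL_079373 had 124.8 CPM in X2, 125.4 in X1, 13.9 in irradiated animals, 25.7 in *mex3-1(RNAi)* animals and 23.5 in *control(RNAi)* animals.

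Both fractions were enriched over whole control animals, a contrast that the choice did not name, although it follows in part from the ratios it did use. The X2/control ratio of the members ran from 2.11 to 10.8 (median 4.32) and the X1/control ratio from 1.44 to 9.97 (median 5.07). At least 2-fold more was found in X2 in 39 of 39 members, against 13.9% of all transcripts tested, and in X1 in 38 of 39, against 17.9%. At least 4-fold more was found in X2 in 26 members, against 0.753% of all transcripts, and in X1 in 35, against 3.7%. Sorted cells and whole animals differ in composition, and the middle of the distribution depends on the filter: among transcripts of 5 CPM or more in each library of a pair the median log2 ratio was 0.26 for X2 and 0.20 for X1 over control, and over all transcripts tested it was -0.15 for X2 and -0.28 for X1.

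The largest X1/control ratios were those of SmedASXL_025702, at 9.97 [8.87 to 11.2], and SmedASXL_041261, at 9.45 [8.65 to 10.3]. SmedASXL_025702 had 36.2 CPM in X2, 33.4 in X1, 0.258 in irradiated animals, 4.90 in *mex3-1(RNAi)* animals and 2.45 in *control(RNAi)* animals. Its irradiated level rests on 18 reads. The smallest were those of SmedASXL_012104, at 1.44 [1.43 to 1.44], and SmedASXL_078527, at 3.50 [3.23 to 3.78]. SmedASXL_078527 had 48.5 CPM in X2, 38.4 in X1, 3.52 in irradiated animals, 7.21 in *mex3-1(RNAi)* animals and 10.3 in *control(RNAi)* animals.

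**Figure D3:**
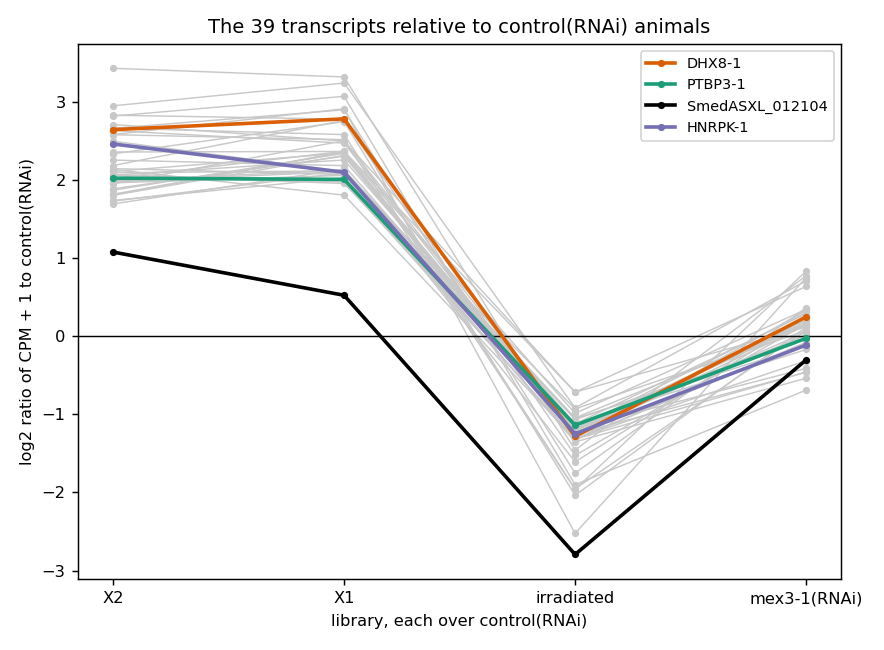
Log2 ratio of CPM + 1 of the X2, X1, irradiated and *mex3-1(RNAi)* libraries over the shared *control(RNAi)* library, with a line for each of the 39 transcripts and the 3 named genes and SmedASXL_012104 in colour or black. All lines are above 0 in X2 and X1 and below 0 in irradiated animals, and they spread on both sides of 0 in *mex3-1(RNAi)* animals, from -0.69 to 0.83.

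SmedASXL_012104 stood apart from the other members. It had 11293 CPM in X2, 7695 CPM in X1, 771 CPM in irradiated animals, 4338 CPM in *mex3-1(RNAi)* animals and 5351 in *control(RNAi)* animals. It had the highest X2/X1 ratio, the lowest irradiated/control ratio and the lowest X2/control and X1/control ratios of all members. It also set the summed share of reads: the 39 members took 1.80% of the X2 reads, 1.49% of X1, 0.134% of irradiated, 0.583% of *mex3-1(RNAi)* and 0.677% of *control(RNAi)* reads. Without it the other 38 took 0.671% of the X2 reads, 0.718% of X1, 0.0569% of irradiated, 0.149% of *mex3-1(RNAi)* and 0.142% of *control(RNAi)* reads. The summed X2/X1 ratio was 1.21 with it and 0.934 without it, and the summed *mex3-1(RNAi)*/control ratio was 0.861 with it and 1.05 without it, so the direction of both sums rested on this 1 transcript.

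In *mex3-1(RNAi)* animals the members as a group lay near the control level. The *mex3-1(RNAi)*/control ratio ran from 0.620 to 1.78 with a median of 1.09, and the median log2 ratio was 0.12 against 0.01 over all transcripts tested. The level was above that of control animals in 24 of 39 members, against 52.3% of all transcripts. It was at least 25% higher in 8 of 39, against 6.92%, and at least 20% lower in 5 of 39, against 6.23%. The other 26 lay in between. The counting interval was above 1 in 20 members, against 25.2% of all transcripts, below 1 in 10, against 21.3%, and held 1 in 9. Since the choice used this ratio, nothing is read from the counts.

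At the upper end, 5 members had ratios of at least 1.5, against 1.69% of all transcripts. They ran from 1.56 to 1.78, while the next was SmedASXL_019163 at 1.29, and this gap was noticed after the values were seen. SmedASXL_012484 had 87.2 CPM in X2, 83.4 in X1, 2.79 in irradiated animals, 25.3 in *mex3-1(RNAi)* animals and 13.8 in *control(RNAi)* animals, a *mex3-1(RNAi)*/control ratio of 1.78 [1.65 to 1.92]. SmedASXL_025702, given above, had a ratio of 1.71 [1.48 to 1.97], and the other 3 were SmedASXL_013552, SmedASXL_041261 and SmedASXL_010065. The X1/control ratios of these 5, from 5.65 to 9.97, overlapped those of the other 34 members, of 1.44 to 8.40. None of the 5 has a gene name.

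At the lower end, SmedASXL_018544 had 132.0 CPM in X2, 157.4 in X1, 4.05 in irradiated animals, 10.7 in *mex3-1(RNAi)* animals and 17.9 in *control(RNAi)* animals. Its *mex3-1(RNAi)*/control ratio was 0.620 [0.568 to 0.677], the lowest of all members, although its X1/control ratio of 8.40 was the third highest. SmedASXL_010784 followed with a ratio of 0.689 [0.602 to 0.790]. It had 20.6 CPM in X2, 26.7 in X1, 1.55 in irradiated animals, 3.48 in *mex3-1(RNAi)* animals and 5.50 in *control(RNAi)* animals.

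The *mex3-1(RNAi)* library was above the irradiated library in all 39 members, where 65.5% of all transcripts tested were above it. The ratio ran from 1.70 to 9.68 with a median of 2.52, and was at least 2 in 31 of 39, against 3.83% of all transcripts. This contrast was looked at after the values were seen. It is the *mex3-1(RNAi)*/control ratio divided by the irradiated/control ratio, both of which the choice used, so these counts are a description. The largest ratio was again that of SmedASXL_013552, at 9.68, and the smallest that of SmedASXL_054355, at 1.70.

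The neighbouring classes were the 74 unlisted transcripts that met the other limits with a lower X2/X1 ratio (X1-higher) and the 6 with a higher one (X2-higher). The median *mex3-1(RNAi)*/control ratio was 1.09 in the members, 1.29 in the X1-higher class and 0.618 in the X2-higher class. A level at least 25% higher was found in 8 of 39 members, in 42 of 74 X1-higher and in 0 of 6 X2-higher transcripts. A level at least 20% lower was found in 5 of 39 members, in 0 of 74 X1-higher and in 5 of 6 X2-higher transcripts. The ranges overlapped, from 0.620 to 1.78 in the members, from 0.821 to 1.96 in the X1-higher class and from 0.553 to 0.934 in the X2-higher class, and the limits on this ratio bounded all of them. The difference between classes was not tested, since 1 library was analysed per condition.

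**Figure D4:**
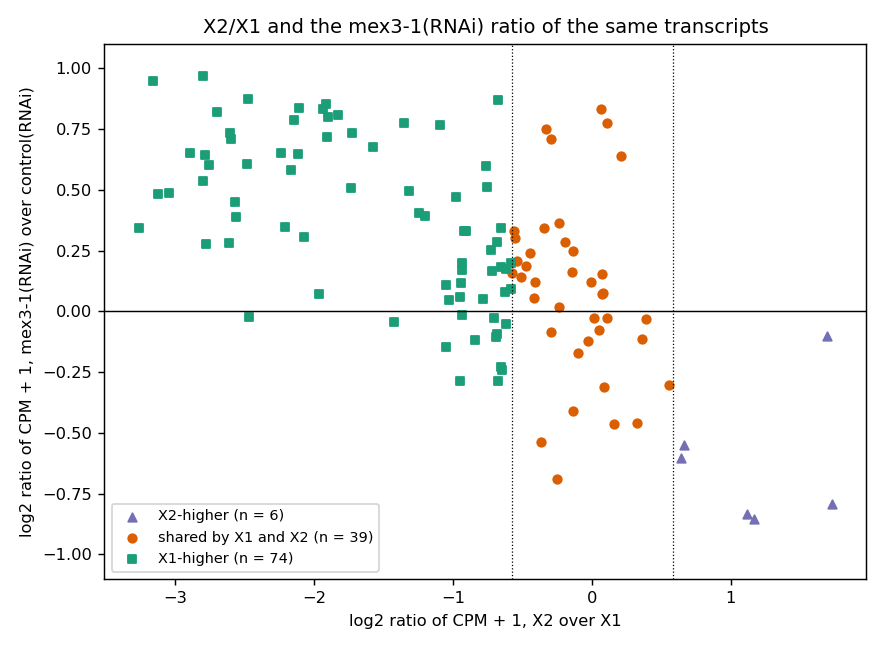
Log2 ratio of CPM + 1 of *mex3-1(RNAi)* over *control(RNAi)* against that of X2 over X1, for the 6 X2-higher, the 39 shared and the 74 X1-higher transcripts, with dotted lines at X2/X1 of 0.67 and 1.5. The 39 lie on both sides of 0, while all 6 X2-higher transcripts lie below 0 and 61 of the 74 X1-higher ones above it.

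The median irradiated/control ratio was 0.421 in the members, 0.250 in the X1-higher class and 0.263 in the X2-higher class, with ranges that overlapped. The median X1/control ratio was 5.07 in the members, 8.29 in the X1-higher class and 3.18 in the X2-higher class, and the median X2/control ratio was 4.32 in the members, 2.75 in the X1-higher class and 8.61 in the X2-higher class. These medians are a description, since X2/X1, which set the classes, is X2/control divided by X1/control. The limits also forced larger folds over irradiated animals in the neighbours. The lowest X1/irradiated ratio was 12.1 in the X1-higher class, and the lowest X2/irradiated ratio was 15.1 in the X2-higher class. The irradiated/control medians are thus not independent of the choice. A named X1-higher transcript is *ERCC-1*, of a DNA repair family, with an X2/X1 ratio of 0.627, and a named X2-higher one is *NLK*, of a kinase family, with a ratio of 3.24.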

How the data were processed

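The analysis took 5 RNA-seq libraries, 1 for each condition in the sample labels. Per the labels and the methods, the authors mapped untrimmed single-end reads with Bowtie2 2.2.4 to the SmedASXL transcriptome. The deposited values are a signal per transcript: mapped reads scaled to a common library total (CPM), with 1 added. The deposited tables of DESeq results hold the authors' own fold changes and FDR values and were not used, nor were 10 columns of libraries that match none of the 5 samples; per the file headers these include further X1, X2, irradiated and control libraries.

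Values minus 1 were whole multiples of 1 read in every library (100% within 0.01 read), which gave reads and totals. The unnamed row, at most 4.94e-05% of a library, was left out, as were transcripts missing from a table (14040 and 13). Ratios are of CPM + 1. Intervals are exact 95% Clopper-Pearson intervals of the reads of one library among both, for counting error only. Shares of all transcripts refer to those that reached 1 CPM in one or both libraries. With 1 library analysed per condition no test was made. The scripts were tested on simulated reads.

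The members, lists and tests were chosen with earlier results of these data known. Named transcripts are all members with a gene name in the supplementary sheets, the 2 with the largest and the 2 with the smallest *mex3-1(RNAi)*/control, irradiated/control and X1/control ratio, those just inside and outside each limit, and listed transcripts that met the limits. Others were named after their values were seen. Alternatives were other pseudocounts, scalings and limits. No sequences were used here. Scripts ran in Python 3.11.15 with scipy 1.17.1, numpy 2.4.6 and pandas 2.3.3, and figures in matplotlib 3.10.9.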

Additional observations from a re-analysis of the deposited data

How the results depend on the processing

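The number of transcripts that met the limits, 39, depended on the settings. It was 136 with a pseudocount of 0.1 CPM (38 of the 39 kept) and 15 with 5 CPM, 16 with the median log2 ratio set to 0, 67 without the 10 most abundant transcripts (38 kept), 124 at 6-fold over irradiated and 14 at 10-fold, 23 at an X2/X1 ratio from 0.8 to the inverse of 0.8 and 71 at 0.5 to 2. It was 26 with the whole counting interval inside every limit and 38 with at least 20 CPM in X1 and X2. Membership near a limit is thus not firm.

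Over the same 39, a pseudocount of 5 CPM gave median log2 ratios of -0.98 for irradiated over *control(RNAi)* (-1.25 as reported), 2.10 for X1 (2.34) and 1.98 for X2 (2.11), with 18 members at least 2-fold lower in irradiated animals and 3 at least 20% lower in *mex3-1(RNAi)* animals. With the median set to 0 the X1 and X2 medians were 2.14 and 1.85, and without the 10 most abundant transcripts 2.50 and 2.27. No median changed sign under any of these settings. The share of reads without SmedASXL_012104, an alternative added after the data were seen, was 0.671% in X2, 0.718% in X1, 0.0569% in irradiated, 0.149% in *mex3-1(RNAi)* and 0.142% in *control(RNAi)* animals.

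No paired analysis was made because 1 library was analysed per condition. The depth limits low levels: the irradiated level of SmedASXL_025702 rests on 18 reads.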
